A study of Spodoptera frugiperda with 18 samples.

Results

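The 4 adult libraries of the fall armyworm, Spodoptera frugiperda, a noctuid moth and crop pest, were set against the 6 larval libraries of the same series, 10 of 18 libraries in all. They were chosen by the developmental stage in their labels, and table rows identical in sequence and in all counts were first merged, which left 660 of 741 rows. The adults were a female and a male on day 1 and a female and a male on day 4, and the larvae were 1 library for each of instars 1 to 6, with no sex given. No strain, genotype, food or treatment is stated for any library, and the labels give the species as the only source of the RNA, so the body part is not known. Every instar, sex and age has a single library, so libraries of different ages and sexes stood in for replicates of a life stage. The labels do not mention separate cultures or pools, so a p-value measures no more than the spread between libraries. In the edgeR tests that spread also takes in 6 pupal libraries of the series.

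MicroRNAs (miRNAs) are short RNAs cut from a hairpin, of which the 5p or the 3p arm, or both, can be kept. They pair with messenger RNAs mainly through the seed, here bases 2 to 8, and lower the output of those they pair with. In insects with a pupal stage, larval tissues are largely replaced during metamorphosis under the steroid hormone ecdysone and juvenile hormone, and in Drosophila the let-7 complex of let-7, miR-100 and miR-125 helps time that change. Adults add wings, flight muscle, compound eyes and mature gonads to what a caterpillar has, and the gonads differ between the sexes.

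Names that begin with sfr- are those of the species, and the remaining rows carry family names with a final -x, -y or -z. Of the family rows that share 12 bases with 1 arm of a species row, 23 ending in -x matched the 5p arm and 23 ending in -y matched the 3p arm. Rows that are predictions are named here by their sequence. The sequences of 17 rows that differed between adults and larvae, chosen to show shared and shifted seeds and both arms of a hairpin, are printed 5′ to 3′ from the deposited table, with T for U and the seed in capitals. The first 9 are of rows higher in adults. They show that the miR-277 rows share one seed, and that the forms of miR-375-3p and of miR-989 start at different bases and so carry different seeds.
sfr-miR-277-3p: tAAATGCActatctggtacgaca
miR-277-y: tAAATGCActatctggtacgacca
sfr-miR-375-5p: aCCCGAGCggattgagcaaact
sfr-miR-375-3p: aGTTTGTTcgccccggctcga
predicted row 1, which starts further along the same arm as sfr-miR-375-3p: tTTGTTCGccccggctcgagtcg
miR-989-z: gTGTGATGtgacgtagtggaag
miR-989-y: tGTGATGTgacgtagtggaa
sfr-miR-285-3p: tAGCACCAttcgaattcagtgc
sfr-miR-10505-3p: tAGGGTTAgaaacttggctc

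The next 8 are of rows lower in adults. They show that sfr-miR-6094-3p and miR-6094-z share a seed while the other arm of the same hairpin carries another, and they add the 5p rows of the neighbours miR-1175 and miR-750 and an abundant row, sfr-miR-10-5p.
sfr-miR-6094-3p: tATTCGAGacctctgctgatcct
miR-6094-z: tATTCGAGacctctgctgatcctt
sfr-miR-6094-5p: aTCAGCGGtggcctggggtacct
miR-1175-x: tGGAGGTGtgatctcttcact
miR-750-x: aGTTGGACaggggatcttgaca
predicted row 2, a near copy of miR-10460-x: aTTCCAATgttcgttagtgatat
miR-137-y: tATTGCTTgagaatacacgtag
sfr-miR-10-5p: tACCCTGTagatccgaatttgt

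Counts assigned to miRNAs summed to 2088442 in the day 1 female, 1197762 in the day 4 female, 2717745 in the day 1 male and 3883595 in the day 4 male, against 230451 to 796582 in the larvae. Every adult library was thus deeper than every larval one, and depth and stage cannot be told apart. Levels are in CPM, that is, counts divided by the library total after correction with the factors of the fit. A count of 3, the upper limit that a count of 0 allows, corresponds on this scale to 0.808 to 2.15 CPM in the adults and 3.25 to 12.2 CPM in the larvae, for counting error only. A list of 80 family names known from vertebrates matched 94 rows. Those that are near copies of a row with another family name were not counted, which left 84 rows. These vertebrate-named rows are a possible sign of RNA from another source. They held 0.166% to 0.807% of the counts of an adult and 0.0200% to 0.937% of those of a larva.

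Adults and larvae differed in many of the miRNAs tested. Of the 320 rows that averaged 10 counts or more over the 16 larval, pupal and adult libraries, 106 (33.1%) passed the threshold of 0.05 on the adjusted p of the edgeR quasi-likelihood test, 56 of them higher in adults (17.5% of those tested) and 50 lower (15.6%). The median log2 fold change, adults over larvae, was 2.46 for the 56 and -2.52 for the 50, beside 0.09 for all 320. All 4 adults lay above all 6 larvae in 40 rows (12.5%) and below them in 32 (10%), which makes 72 rows without overlap (22.5%). The split depends on the scaling: with TMM factors of all rows and all 18 libraries, which move every ratio of adults to larvae by 0.27 on the log2 scale, 70 rows were higher and 39 lower, and 53 rows had all adults above and 30 all adults below. Of the 106 called rows, 95 were also called there. Without the 84 rows counted as vertebrate-named, 110 of 294 rows were called, 60 higher and 50 lower, among them 105 of the 106. With counts thinned to the smallest total, 230451, 79 of 212 rows were called. In a fit of the larval and adult libraries alone, without the pupae, 82 of 313 rows were called, 44 higher and 38 lower. Of the 106 called rows, 78 were among them. Since these are bulk libraries, fewer cells of a type and less RNA per cell cannot be told apart in any of these differences.

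**Figure D1:**
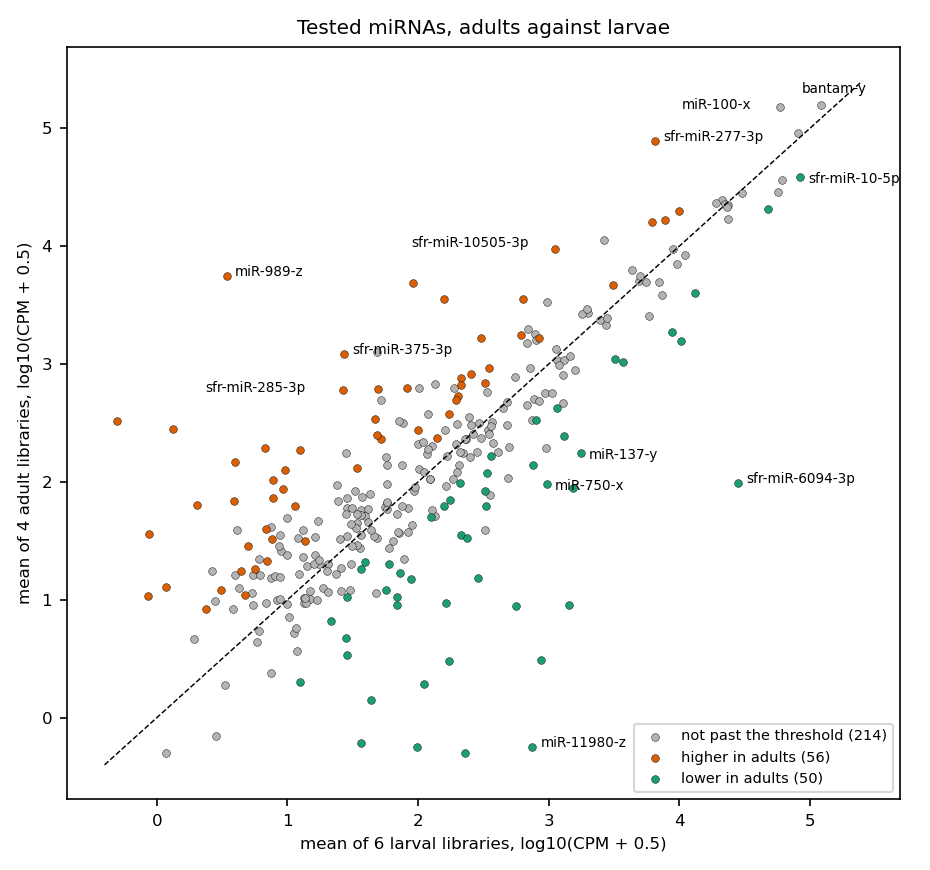
Mean level of each of the 320 tested miRNAs in the 6 larval libraries (x axis) and the 4 adult libraries (y axis), both as log10(CPM + 0.5); the dashed line marks equal levels, and the 56 rows higher in adults, the 50 lower and the 214 not past the threshold have their own colours. The rows higher in adults include sfr-miR-277-3p among the most abundant, and sfr-miR-6094-3p lies far below the line.

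Among the abundant miRNAs, miR-277-3p stood out. In Drosophila miR-277 acts on the breakdown of branched-chain amino acids and on metabolism in adults. The level of sfr-miR-277-3p was 75693 CPM in the day 1 female, 47241 CPM in the day 4 female, 102977 CPM in the day 1 male and 85446 CPM in the day 4 male, against a lowest of 5228, a median of 6588 and a highest of 7905 CPM in the larvae. Every adult was above every larva, and the larvae lay close together: the means were 77839 ± 23314 CPM in adults (SD, n = 4) and 6560 ± 1057 CPM in larvae (SD, n = 6). The log2 fold change was 3.57 (SE 0.53, edgeR adjusted p 0.000404). The near copy miR-277-y had 462, 407, 779 and 822 CPM in the same 4 adults, against 27.2, 48.0 and 77.3 CPM as the lowest, median and highest larva, again with no overlap (log2 3.65, SE 0.51, edgeR adjusted p 0.00029). In females the pupal levels of sfr-miR-277-3p were 4832, 4600 and 25111 CPM on days 1, 4 and 7, and in males 4101, 3027 and 17209 CPM, so the day 7 pupae lay between the larvae and the adults.

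The miR-277 hairpin belongs to a cluster with miR-317 and miR-34, and in Drosophila miR-34 acts in the ageing brain. Of 11 rows in this list 9 were tested, and 2, both of miR-277-3p, were higher in adults and none lower, with a median log2 fold change of 1.73 beside 0.09 for all rows tested. The list took 6.62% to 9.23% of the counts of an adult and 0.803% to 1.13% of those of a larva. sfr-miR-34-5p had 340, 895, 202 and 1062 CPM in the day 1 and day 4 females and the day 1 and day 4 males, against 44.2, 83.4 and 602 CPM as the lowest, median and highest larva. The groups overlapped and the row did not pass (log2 1.73, edgeR adjusted p 0.0961). sfr-miR-317-3p had 563, 4900, 282 and 2192 CPM in the same adults, against 188, 526 and 1530 CPM (log2 1.51, edgeR adjusted p 0.144). Both were higher on day 4 than on day 1 in each sex.

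The largest rises by fold were carried mainly by 1 sex. miR-989 is known from the ovary of Drosophila, where it acts in the migration of border cells. miR-989-z had 4589 CPM in the day 1 female and 17679 CPM in the day 4 female, 1.68 and 1.08 CPM in the day 1 and day 4 males, and 0, 1.10 and 12.2 CPM as the lowest, median and highest larva. The 2 females were above every larva and the males within the larval range (log2 for all adults 11.09, SE 2.71, edgeR adjusted p 0.00673; 9.30 without the day 4 female, adjusted p 0.0165). The level of miR-989-y was 198 CPM in the day 1 female, 1121 CPM in the day 4 female, 0.420 CPM in the day 1 male and 0 in the day 4 male, with no count in any larva. Its 1992 adult counts were at least 174-fold higher than the larvae allow, on a floor of 3 counts over the 6 larvae together (fitted log2 11.97, edgeR adjusted p 0.0251). The call was lost without the day 4 female (log2 9.58, edgeR adjusted p 0.0735), and it held under 19 of 26 alternatives. Those that lost it include the fit of larvae and adults alone (edgeR adjusted p 0.0774). With the sexes as separate groups it was also lost (log2 7.33, edgeR adjusted p 0.130). The other miRNA of the ovary list, miR-184, acts in oogenesis in Drosophila, and neither of its tested rows was called. miR-184-y had a mean of 28365 CPM in adults and 30382 CPM in larvae (log2 -0.10, edgeR adjusted p 0.854), and miR-184-z 120 CPM in adults and 111 CPM in larvae (log2 0.11, edgeR adjusted p 0.865).

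The rise of miR-2765-z, a longer form of miR-2765, was carried by the day 4 female. miR-2765-z had 35.3 and 1092 CPM in the day 1 and day 4 females and 0.420 and 3.77 CPM in the day 1 and day 4 males, against 0, 0.541 and 2.20 CPM as the lowest, median and highest larva. The groups overlapped through the day 1 male. Its 1616 adult counts and 3 larval counts gave a ratio of 141 (95% interval of the counting error 48.2 to 686). The edgeR adjusted p was 0.0054, and 0.0720 without the day 4 female, where the log2 fold change was 3.59 rather than 8.02. The main form sfr-miR-2765-5p had 532, 1361, 116 and 512 CPM in the 4 adults, against 8.79, 19.9 and 413 CPM in the larvae, and did not pass (log2 2.62, edgeR adjusted p 0.0917).

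The miR-375 rows were high in males. In mice miR-375 is known from the pancreatic islet; a role in moths is not known here. For sfr-miR-375-3p the levels were 50.7 and 115 CPM in the day 1 and day 4 females and 1288 and 3454 CPM in the day 1 and day 4 males, against 14.1, 21.2 and 62.4 CPM as the lowest, median and highest larva. The males were far above the larvae, and the day 1 female was below instar 6 (log2 5.50, SE 1.18, edgeR adjusted p 0.00344). The predicted row 1, tTTGTTCGccccggctcgagtcg, was the more abundant form of this arm, with 128, 228, 6784 and 12342 CPM in the same 4 adults, against 69.2, 81.7 and 120 CPM in the larvae. All adults were above all larvae (log2 5.75, SE 1.29, edgeR adjusted p 0.00409). For sfr-miR-375-5p the levels were 115, 140, 5384 and 8765 CPM in the same adults, against 81.3, 175 and 211 CPM in the larvae, so the females lay inside the larval range (log2 4.51, SE 1.40, edgeR adjusted p 0.0219, and 0.0731 without the day 4 male).

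Other large rises were shared by the sexes. sfr-miR-285-3p, which in Drosophila acts in the glia of the blood-brain barrier, had 389 and 569 CPM in the day 1 and day 4 females and 388 and 1085 CPM in the day 1 and day 4 males. In larvae it had 93.1, 37.4, 10.2, 3.14, 12.2 and 0 CPM in instars 1 to 6. All adults were above all larvae, and instar 1 was the highest larva (log2 4.49, SE 1.16, edgeR adjusted p 0.00815). sfr-miR-10505-3p, a miRNA named in this species, had 6506, 11827, 5445 and 14040 CPM in the 4 adults. In instars 1 to 6 it had 45.5, 150, 306, 428, 3198 and 2555 CPM, so the last 2 instars were the highest larvae and still below every adult (log2 3.09, SE 0.91, edgeR adjusted p 0.0176). Against instars 4 to 6 alone its log2 fold change was 2.26 and the call was lost by a narrow margin (edgeR adjusted p 0.05 when rounded), and against instars 1 to 3 alone it was 5.73 (edgeR adjusted p 0.0012). sfr-miR-210-3p, picked out after its values were seen because its adult and larval levels lay so far apart, had 123, 133, 96.1 and 235 CPM in the 4 adults, against 0, 0 and 11.9 CPM as the lowest, median and highest larva (log2 5.16, edgeR adjusted p 0.00324); miR-210 acts in the photoreceptors of Drosophila.

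**Figure D2:**
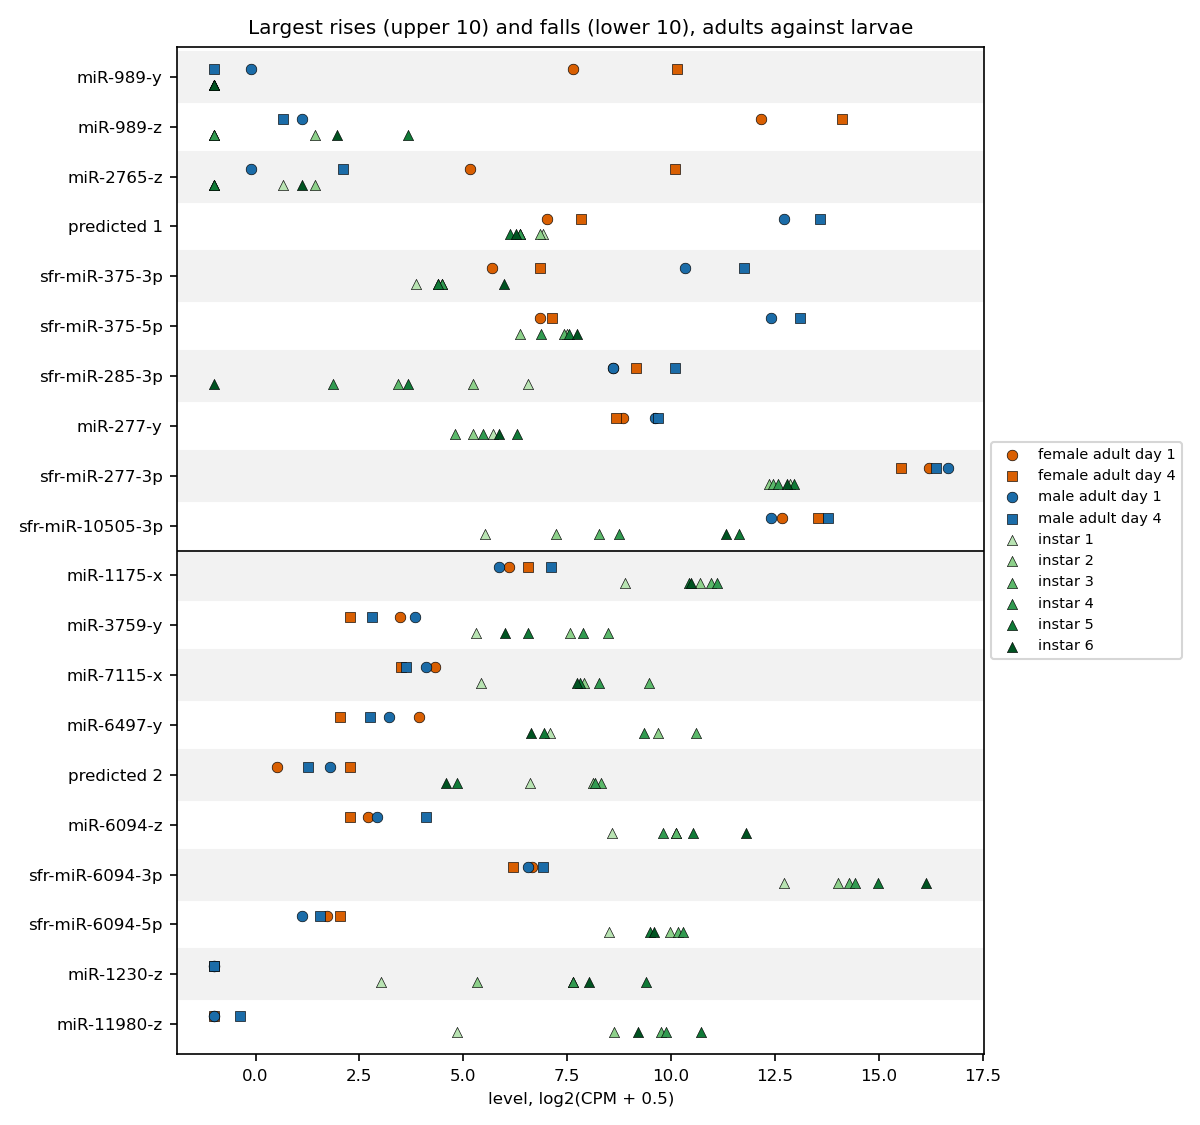
Level of the 10 largest rises (upper rows, largest at the top) and the 10 largest falls (lower rows, largest at the bottom) among called rows averaging 100 CPM or more, as log2(CPM + 0.5), with 1 point per library and adults drawn above larvae in each row; predicted 1 and predicted 2 are the predicted rows named in the text. The miR-989 rows are high in the 2 females and the miR-375 rows in the 2 males, while the miR-277 and miR-6094 rows separate all adults from all larvae.

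All 4 tested rows of miR-6094, a family named in Lepidoptera, were lower in adults. sfr-miR-6094-3p had 99.5 and 73.0 CPM in the day 1 and day 4 females and 94.0 and 121 CPM in the day 1 and day 4 males. In instars 1 to 6 it had 6719, 16597, 20021, 21962, 32093 and 71880 CPM, each instar above the one before. Every adult was far below every larva (log2 -8.18, SE 1.39, edgeR adjusted p 0.00108). The longer form miR-6094-z had 6.05, 4.30, 7.13 and 16.7 CPM in the 4 adults, against 379, 1114 and 3591 CPM as the lowest, median and highest larva (log2 -7.36, edgeR adjusted p 0.00126). The other arm, sfr-miR-6094-5p, had 2.79, 3.58, 1.68 and 2.42 CPM in the 4 adults, against 363, 888 and 1245 CPM in the larvae (log2 -8.36, edgeR adjusted p 0.0011). Both arms were thus low in all adults. On days 1, 4 and 7, female pupae held 16875, 993 and 533 CPM of sfr-miR-6094-3p, and male pupae 17046, 1601 and 556 CPM.

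miR-750 and miR-1175 lie next to each other in arthropod genomes, and all 5 of their rows were tested: 3 were lower in adults and none higher, with a median of -2.23. miR-1175-x had 68.4, 93.8, 57.9 and 137 CPM in the 4 adults, against 473, 1551 and 2210 CPM as the lowest, median and highest larva, with no overlap (log2 -4.09, SE 0.94, edgeR adjusted p 0.00461). miR-750-x had 104, 84.5, 94.8 and 99.1 CPM in the adults, against 502, 967 and 1531 CPM in the larvae, also with no overlap (log2 -3.35, edgeR adjusted p 0.000381). miR-750-y, the abundant arm, had 1840, 1425, 1679 and 2591 CPM in the adults, against 4037, 8603 and 15368 CPM in the larvae. The groups did not overlap (log2 -2.23, edgeR adjusted p 0.0221), but the call was lost without the day 1 female, the day 4 female or the day 1 male, with adjusted p up to 0.0918 and log2 values of -2.22, -2.05 and -2.19. miR-1175-y, with a mean of 467 CPM in adults and 1281 CPM in larvae, did not pass (log2 -1.46, edgeR adjusted p 0.128).

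Predicted row 2, aTTCCAATgttcgttagtgatat, had 0.930, 4.30, 2.94 and 1.88 CPM in the 4 adults, against 23.6, 188 and 316 CPM as the lowest, median and highest larva (log2 -6.08, edgeR adjusted p 0.000415). The other 5 of the 10 largest falls carry family numbers from other animals, with no known role here, and are short, at 18 or 19 bases. Of all 320 tested rows 30 (9.38%) are that short. miR-11980-z had 1 count over the 4 adults and 1523 over the 6 larvae, with larval levels of 28.1 to 1693 CPM (edgeR adjusted p 0.000135). miR-1230-z had no adult count and 465 larval counts, at least 591-fold lower in adults on a floor of 3 counts over the 4 adults together (edgeR adjusted p 0.00409). miR-6497-y, miR-7115-x and miR-3759-y had adult means of 8.37, 14.7 and 8.83 CPM, against larval means of 562, 289 and 163 CPM, and none of the 3 overlapped between adults and larvae (log2 -6.05, -4.28 and -4.19, edgeR adjusted p 0.0054, 0.00201 and 0.00176).

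The 10 most abundant rows took 66.1% ± 5.45 of the counts in adults (SD, n = 4) and 66.1% ± 1.47 in larvae (SD, n = 6). bantam-y, which in Drosophila promotes growth and blocks cell death, had 144554, 138915, 177171 and 167678 CPM in the 4 adults, against 107133, 119046 and 146338 CPM as the lowest, median and highest larva. Both females lay below instar 2, and the row did not pass (log2 0.36, SE 0.15, edgeR adjusted p 0.0796); under the factors of all 18 libraries it did, with 0.63 and an adjusted p of 0.0148. miR-276-y, which acts in the olfactory memory of Drosophila, had a mean of 91345 CPM in adults and 80794 CPM in larvae (log2 0.18, edgeR adjusted p 0.561).

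sfr-miR-10-5p, a miRNA of the Hox cluster, was lower in adults, with 35752, 35092, 43597 and 40518 CPM, against 63207, 70516 and 157029 CPM as the lowest, median and highest larva. All adults were below all larvae, and instar 1 was the highest (log2 -1.12, SE 0.25, edgeR adjusted p 0.00409). miR-31-x, which acts in the segmentation of the Drosophila embryo, had 22575, 11812, 29689 and 19057 CPM in the adults, against 32046, 49858 and 63999 CPM in the larvae. The groups did not overlap (log2 -1.19, edgeR adjusted p 0.00795); without the day 4 female the value was -0.98 and the adjusted p 0.0555. miR-8-y, which promotes body growth through the fat body of Drosophila, had a mean of 29102 CPM in adults and 57062 CPM in larvae and did not pass (log2 -0.97, edgeR adjusted p 0.0762).

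The let-7 complex differed according to which larvae were used. let-7-x had 12104 and 8357 CPM in the day 1 and day 4 females and 12428 and 12284 CPM in the day 1 and day 4 males. In instars 1 to 6 it had 1.08, 130, 669, 1877, 5200 and 7946 CPM, each instar above the one before and all below every adult. The row did not pass against all 6 larvae (log2 2.10, SE 1.08, edgeR adjusted p 0.149). miR-100-x had 156601, 98418, 188476 and 166178 CPM in the adults and 318, 4404, 16739, 38025, 128310 and 165637 CPM in instars 1 to 6, so the last 2 instars reached adult levels (log2 1.37, edgeR adjusted p 0.282). Of the 8 rows of this list 7 were tested and none was called, with a median of 1.37, and the list took 12.8% to 18% of the counts of an adult and 0.0434% to 13.1% of those of a larva. Low rows that begin as let-7 does, miR-98-x (188 CPM in adults and 11.9 CPM in larvae on average) and miR-8549-z (63.5 CPM in adults and 1.52 CPM in larvae), were called higher (log2 3.97 and 5.35, edgeR adjusted p 0.00877 and 0.000503); they are near copies of let-7-x, and the sum of all 5 rows with its seed GAGGTAG did not pass (log2 2.04, edgeR adjusted p 0.160).

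Against instars 1 to 3 alone, 124 of 336 rows were called (36.9%), 68 higher (20.2%) and 56 lower (16.7%). Against instars 4 to 6 alone, 59 of 330 were called (17.9%), 23 higher (6.97%) and 36 lower (10.9%); the comparisons share the 4 adults. let-7-x had a log2 fold change of 5.31 against instars 1 to 3 (edgeR adjusted p 0.00674) and 1.21 against instars 4 to 6 (edgeR adjusted p 0.0537). miR-100-x had 4.30 (edgeR adjusted p 0.00407) and 0.50 (edgeR adjusted p 0.334). In the other direction, miR-124-y, a miRNA of neurons, had 45.1, 91.7, 55.0 and 118 CPM in the 4 adults and 955, 633, 367, 151, 12.2 and 18.6 CPM in instars 1 to 6. Adults were below the first 4 instars and above the last 2, with a log2 fold change of -3.11 against instars 1 to 3 (edgeR adjusted p 0.000823) and 0.38 against instars 4 to 6 (edgeR adjusted p 0.764). miR-137-y, also known from neurons, had 217, 135, 205 and 150 CPM in the adults and 6144, 2157, 999, 638, 325 and 292 CPM in instars 1 to 6. All adults were below all larvae (log2 -3.31, edgeR adjusted p 0.00823), with -2.31 without instar 1 and -1.21 against instars 4 to 6 alone (edgeR adjusted p 0.103). sfr-miR-277-3p changed little with the larvae used, with 3.63 against instars 1 to 3 (edgeR adjusted p 0.00344) and 3.51 against instars 4 to 6 (edgeR adjusted p 0.00849).

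The counts of called rows in the lists of related or co-acting miRNAs are read against the 17.5% of all tested rows called higher and the 15.6% called lower. Among 21 tested neuronal and sensory rows, 5 were higher and 3 lower, with a median of 0.02. Beside sfr-miR-285-3p, the higher rows included miR-279-y, whose family acts in olfactory neurons of Drosophila, with 15982, 16133, 18948 and 15345 CPM in the 4 adults, against 3857, 7008 and 12597 CPM as the lowest, median and highest larva. All adults were above all larvae (log2 1.10, edgeR adjusted p 0.00672, and 0.0736 without the day 4 female, with 1.04). miR-190-y, the weaker arm of its hairpin, was higher (17.2 CPM in adults and 3.95 CPM in larvae, log2 2.0, edgeR adjusted p 0.00781). sfr-miR-279b-3p and miR-279-z were called higher at 0.60 and 0.76, and each lost its call without any 1 of 9 of the 10 libraries, with adjusted p up to 0.239 and 0.188 and log2 values of 0.51 to 0.66 and 0.58 to 0.84. Besides miR-137-y, miR-190-x (log2 -1.47) and miR-7-x (log2 -1.33) were called lower; they lost the call without any 1 of 7 and of 5 libraries, with adjusted p up to 0.104 and 0.123, and also under the factors of all 18 libraries.

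All 4 muscle rows, of miR-1 and miR-133, were tested and none was called, with a median of -0.67. miR-1-y had 45730, 16466, 60191 and 22271 CPM in the 4 adults, against 26237, 58245 and 101585 CPM as the lowest, median and highest larva (log2 -0.75, edgeR adjusted p 0.213), and both day 4 adults were below every larva. The list of growth and fat miRNAs (bantam, miR-8, miR-14 and miR-278) had none of 10 tested rows higher and 1 lower, the weak arm bantam-x (log2 -0.93), whose call was lost without any 1 of 7 libraries (adjusted p up to 0.132) and under the factors of all 18. In the moulting and ecdysone list, 1 of 10 tested rows was called. This was miR-252-x, with 506, 382, 498 and 586 CPM in the 4 adults, against 138, 157 and 331 CPM in the larvae, all adults above all larvae (log2 1.34, edgeR adjusted p 0.00672). sfr-miR-281-5p, which acts on the ecdysone receptor in the silkworm, had a mean of 16882 CPM in adults and 23532 CPM in larvae (log2 -0.48, edgeR adjusted p 0.4).

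In several clusters most called rows were lower in adults, though few rows were called in each. In that of miR-2, miR-13 and miR-71, whose miR-2 members act on cell death genes in Drosophila, 3 of 11 tested rows were lower and none higher, with a median of -0.80. sfr-miR-13b-3p had 58.1, 105, 68.8 and 103 CPM in the 4 adults, against 140, 318 and 514 CPM as the lowest, median and highest larva, with no overlap (log2 -1.96, edgeR adjusted p 0.00721). The called sfr-miR-2b-5p and sfr-miR-2c-5p are low 5p arms (11.5 and 1.5 CPM in adults, 56.4 and 12.1 CPM in larvae on average), and sfr-miR-2b-5p lost its call without the day 1 female or the day 4 male (log2 -2.12 and -2.13, adjusted p 0.0523 and 0.0552). The abundant sfr-miR-2a-3p had a mean of 5063 CPM in adults and 4949 CPM in larvae (log2 0.03, edgeR adjusted p 0.947).

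miR-305-x, which acts in the gut stem cells of Drosophila, had 1253, 2526, 1525 and 1002 CPM in the 4 adults and 476, 6587, 11418, 15667, 13304 and 14124 CPM in instars 1 to 6. Instar 1 was below every adult and the other 5 instars above (log2 -2.70, SE 0.66, edgeR adjusted p 0.00673). Its partner miR-275-y, with 2561 CPM in adults and 5864 CPM in larvae on average, did not pass (log2 -1.20, edgeR adjusted p 0.203). miR-9-z, of a family that acts in the sensory bristles of Drosophila, had 5372, 3061, 5969 and 1740 CPM in the adults, against 11362, 13330 and 15169 CPM in the larvae, with no overlap (log2 -1.72, edgeR adjusted p 0.00175). In the list of miR-283, miR-12 and miR-304, 3 of 4 tested rows were lower and 1 higher. miR-283-x had 987, 959, 1116 and 1125 CPM in the adults, against 1807, 3959 and 4378 CPM in the larvae, with no overlap (log2 -1.82, edgeR adjusted p 0.00409). The opposite calls were of miR-12, and its forms are compared further on.

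**Figure D3:**
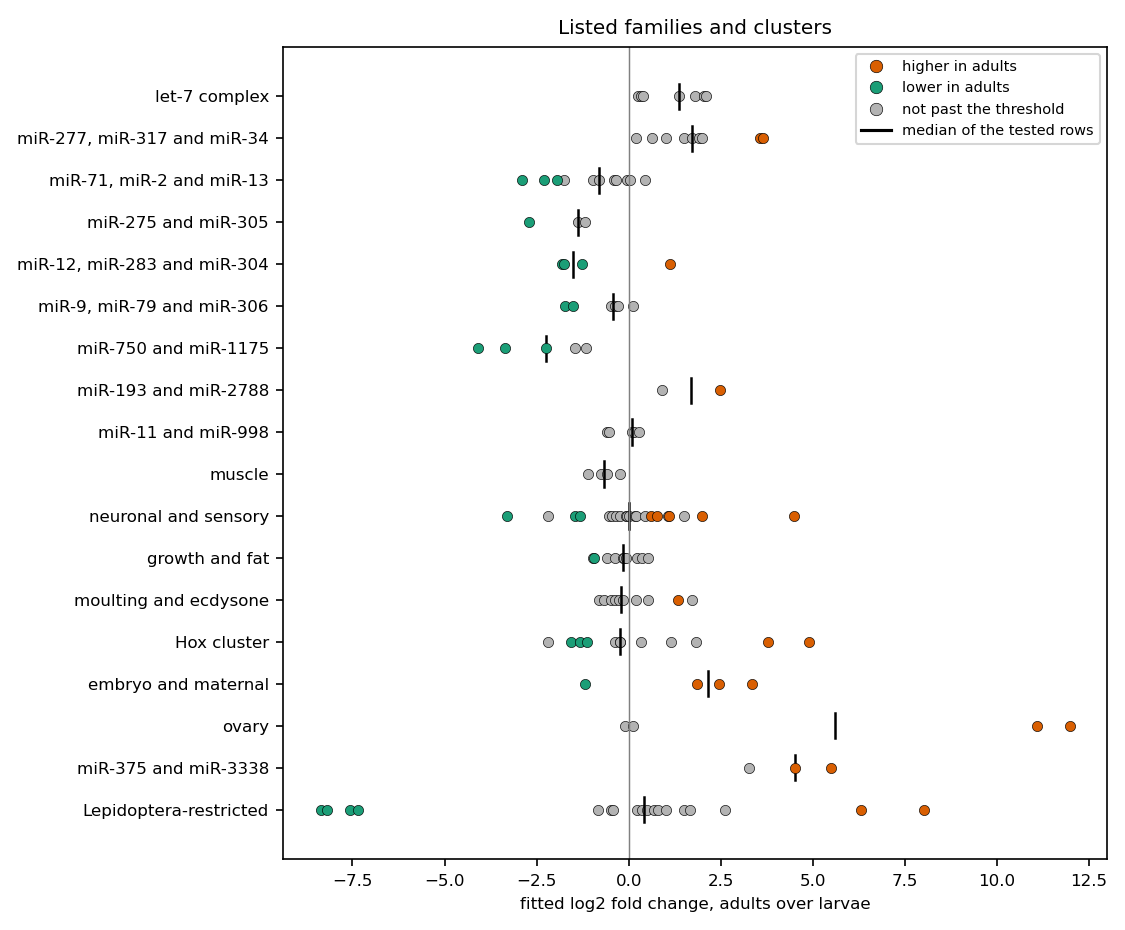
Fitted log2 fold change, adults over larvae, of every tested row in each of the 18 lists, with 1 point per row coloured by its call and a black bar at the median of the list. The miR-750 and miR-1175 list has a median of -2.23 and the muscle list of -0.67, while the list labelled Lepidoptera-restricted spans the miR-6094 falls and the miR-2765 rises.

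The Hox cluster list had 2 of 12 tested rows higher and 3 lower. Forms of miR-10 went both ways: the 3 lower rows were all of miR-10, and of the higher rows 1 was miR-iab-8-x and the other miR-10-z. miR-10-z had 8.84 and 403 CPM in the day 1 and day 4 females and 2.94 and 0.808 CPM in the day 1 and day 4 males, against 2.20, 7.09 and 13.6 CPM as the lowest, median and highest larva, so the day 4 female alone lay above the larvae (log2 3.78, edgeR adjusted p 0.0285). Its call was lost without instar 5, instar 4 or instar 2 (log2 3.56, 3.53 and 3.48, adjusted p 0.0513, 0.0612 and 0.0677), and without the day 4 female it was not among the rows tested. sfr-miR-10-3p had 1089, 1242, 1250 and 836 CPM in the 4 adults, against 1851, 3038 and 5121 CPM in the larvae, with no overlap (log2 -1.56, edgeR adjusted p 0.0041), as its partner arm had none. In the list labelled Lepidoptera-restricted, a name that these data do not test, 2 of 18 tested rows were higher, both forms of miR-2765. In the same list 4 were lower, all of miR-6094. The abundant sfr-miR-2755-3p had 24796 CPM in adults and 21151 CPM in larvae on average (log2 0.23, edgeR adjusted p 0.452), and sfr-miR-2766-3p had 8363 CPM in adults and 11140 CPM in larvae (log2 -0.41, edgeR adjusted p 0.442). In the list of miR-193 and miR-2788, miR-2788-y was higher (61.7 CPM in adults and 10.9 CPM in larvae, log2 2.48, edgeR adjusted p 0.0184), and without the day 1 male it had 2.12 and an adjusted p of 0.0576. None of the 5 tested rows of miR-11 and miR-998 was called.

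Each sex was also set against the same 6 larvae. Female adults differed in 57 of 320 rows (17.8%), 32 higher (10%) and 25 lower (7.81%), and male adults in 63 (19.7%), 33 higher (10.3%) and 30 lower (9.38%). Under the factors of all 18 libraries the splits were 44 higher and 15 lower in females and 43 higher and 20 lower in males. With 2 libraries a sex these counts depend on single libraries, and for females they were 7 without the day 4 female and 24 without the day 1 female. For males they were 6 without the day 4 male and 20 without the day 1 male. Females minus males, a difference in which the larvae cancel, passed in 13 rows (4.06%), 11 higher in females (3.44%) and 2 in males (0.625%). None passed without the day 4 female, the day 1 male or the day 4 male, where 16, 25 and 23 rows had an unadjusted edgeR p under 0.05.

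Of the 13 rows, 9 were also called higher in adults as a group and none lower. miR-989-z differed most (female minus male log2 12.92, edgeR adjusted p 0.0253). The miR-92 family, which acts in neural stem cells of Drosophila, was female-high: miR-92-z had 1000 and 5230 CPM in the day 1 and day 4 females and 198 and 165 CPM in the day 1 and day 4 males, against 158, 317 and 376 CPM as the lowest, median and highest larva. The females were above every larva and the males within the larval range (female minus male log2 4.10, edgeR adjusted p 0.0253). For all adults against larvae miR-92-z had 2.45 (edgeR adjusted p 0.0218) but 0.60 without the day 4 female (adjusted p 0.528), and sfr-miR-92a-3p had 1.86 (edgeR adjusted p 0.0259) but 0.50 without that library (adjusted p 0.547) and 1.78 without instar 4 (adjusted p 0.0502). A predicted row, cCCAGTGTcgtgttaacgatct, had 2937 and 10089 CPM in the day 1 and day 4 females and 559 and 653 CPM in the males, against 404, 595 and 846 CPM in the larvae, so the females alone lay above the larvae (female minus male log2 3.43, edgeR adjusted p 0.0187).

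The male-high rows of the 13 were predicted row 1 of miR-375 (female minus male log2 -5.75, edgeR adjusted p 0.0312) and miR-iab-8-x (-6.63, edgeR adjusted p 0.0251). In Drosophila the iab-8 hairpin lies in the bithorax complex, and a form of its primary transcript is made in the male accessory gland. miR-iab-8-x had 3.26 and 4.30 CPM in the day 1 and day 4 females and 127 and 634 CPM in the day 1 and day 4 males, against 0, 4.41 and 17.6 CPM in the larvae. The females lay within the larval range and the males above it, and the adult call (log2 4.89, edgeR adjusted p 0.00693) was lost without the day 4 male (2.81, adjusted p 0.0557). The level of miR-3338-y was 12.1 and 12.2 CPM in the 2 females, 1194 CPM in the day 1 male and 768 CPM in the day 4 male, against 0, 22.3 and 163 CPM in the larvae; males against larvae passed (log2 4.26, edgeR adjusted p 0.0253), and all adults did not (3.28, edgeR adjusted p 0.2).

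**Figure D4:**
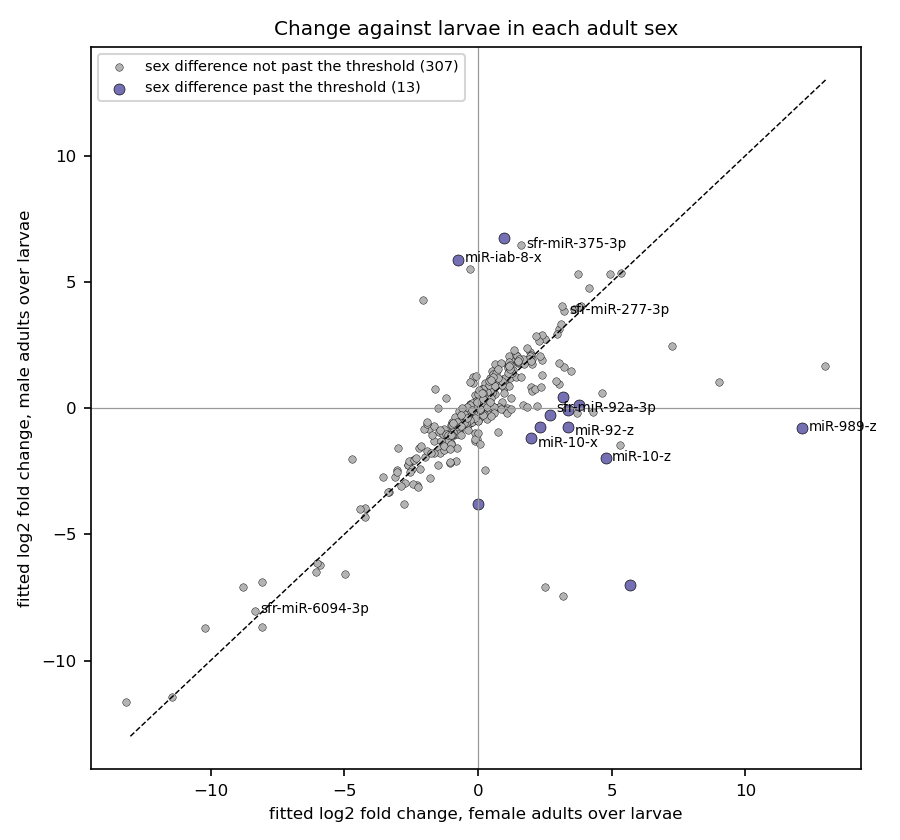
Fitted log2 fold change of each of the 320 tested rows in female adults over larvae (x axis) and in male adults over larvae (y axis), which share the 6 larvae; the dashed line marks equal changes, and the 13 larger points passed the test of female minus male. miR-989-z lies far to the right with a male value near 0, and miR-iab-8-x lies above the line.

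Near copies, between which reads can be split, exist for 39 of the 56 higher rows (69.6%) and 22 of the 50 lower rows (44.0%). Over all 320 tested rows, 171 (53.4%) have one. Summing counts over rows with the same seed joins near copies that start at the same base, but not those that start at another, such as the forms of miR-989 and miR-375-3p. Of 242 seed families tested, 76 were called (31.4%), 34 higher (14%) and 42 lower (17.4%), and under the factors of all 18 libraries 53 were higher and 31 lower. Among families averaging 100 CPM or more, the 5 largest rises were the seeds of miR-989-y (GTGATGT, log2 12.07), miR-989-z (TGTGATG, 11.05), predicted row 1 with miR-375-y (TTGTTCG, 5.69), sfr-miR-375-3p (GTTTGTT, 5.47) and sfr-miR-375-5p (CCCGAGC, 4.45). The largest falls were those of miR-11980-z (-12.09), miR-1230-z (-11.48), sfr-miR-6094-5p (TCAGCGG, -8.39), sfr-miR-6094-3p (ATTCGAG, -8.20) and miR-6497-y (-6.11), and edgeR adjusted p-values of these 10 ran from 0.000115 to 0.0276. The miR-277 seed AAATGCA had 69539, 49190, 99417 and 89630 CPM in the day 1 and day 4 females and the day 1 and day 4 males, against 5125 to 8733 CPM in the larvae (log2 3.48, edgeR adjusted p 0.000384).

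The balance between the arms of a hairpin differed in 5 of 46 hairpins (10.9%) in an exact two-sided permutation test of 4 against 6 libraries, whose smallest p is 0.00476; each of the 5 reached it (adjusted p 0.0438). The log2 ratio of 5p to 3p of miR-1175 was -2.43 ± 0.31 in adults (SD, n = 4) and 0.23 ± 0.52 in larvae (SD, n = 6). The arms of miR-1175 were near balance in larvae, and the 3p arm prevailed in every adult. For sfr-miR-2a it was -7.12 ± 0.33 in adults and -6.14 ± 0.30 in larvae, for bantam -12.89 ± 0.36 in adults and -11.63 ± 0.35 in larvae, and for sfr-miR-10480 -1.57 ± 0.14 in adults and -3.08 ± 0.48 in larvae. For miR-6497, a short row, it was 6.98 ± 0.57 in adults and 1.83 ± 1.89 in larvae. The main arm of bantam, of sfr-miR-2a and of sfr-miR-10480 was the same in both stages. The 5p row of sfr-miR-10480 was low, at 11.4 CPM in adults and 25.3 CPM in larvae on average.

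The ratio of a longer to a shorter form of the same sequence, a comparison added after the data were seen, differed in 4 of 37 pairs (10.8%, exact permutation, adjusted p 0.0440 each). miR-12-z over the shorter miR-12-x was -0.23 ± 0.57 on the log2 scale in adults (SD, n = 4) and 2.19 ± 0.49 in larvae (SD, n = 6), so the longer form led in larvae and the forms were about equal in adults. In levels, miR-12-z had a mean of 335 CPM in adults and 803 CPM in larvae and miR-12-x one of 375 CPM in adults and 173 CPM in larvae. As single rows miR-12-z was called lower (log2 -1.26, edgeR adjusted p 0.0359) and miR-12-x higher (1.11, edgeR adjusted p 0.0237). These calls were lost without any 1 of 5 and of 3 libraries (adjusted p up to 0.104 and 0.0894), and that of miR-12-z under the factors of all 18. miR-9-x over miR-9-z was -3.59 ± 1.06 in adults and -5.52 ± 0.21 in larvae, and miR-750-z over miR-750-y was -5.0 ± 0.25 in adults and -6.08 ± 0.40 in larvae. The predicted cTAGCACTttggctgtgacctgtg over sfr-miR-11-5p was -0.23 ± 0.15 in adults and 0.72 ± 0.32 in larvae.

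**Figure D5:**
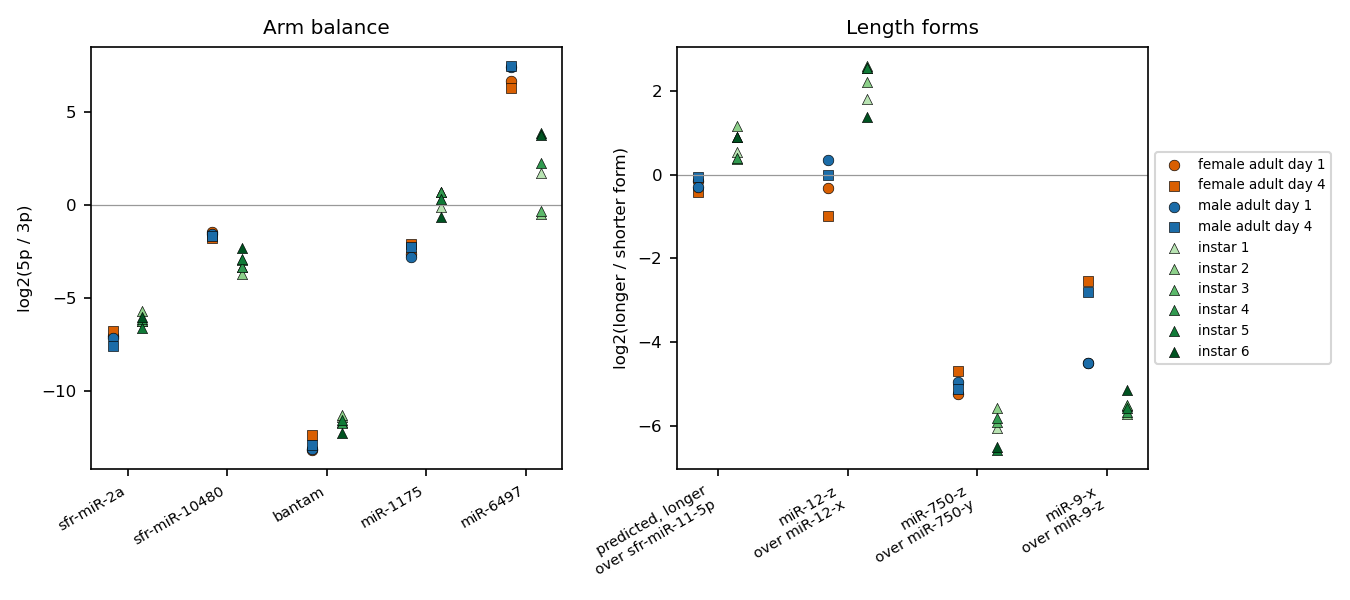
Log2 ratio of the 5p to the 3p arm for the 5 hairpins past the threshold (left) and of the longer to the shorter form for the 4 pairs past it (right), with 1 point per library and adults drawn left of larvae for each item. In all 9 the 4 adults and the 6 larvae do not overlap, which the smallest possible p requires.

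Predicted rows took more of the adult libraries, at 4.25%, 6.85%, 4.47% and 5.61% of counts in the day 1 and day 4 females and the day 1 and day 4 males, against 2.04% to 3.71% in the larvae. The means were 5.30% ± 1.19 in adults (SD, n = 4) and 2.64% ± 0.62 in larvae (SD, n = 6), without overlap (exact permutation p 0.00476, adjusted over 4 measures 0.0190). The difference was 2.65 percentage points, and 4.80 with rows unmerged. The share of the 10 most abundant rows gave an adjusted p of 0.981, Shannon diversity (4.80 bits in adults and 4.87 bits in larvae) one of 0.717, and the number of rows detected in 230451 counts (396 in adults and 357 in larvae) one of 0.181, all by exact permutation. Part of the predicted share lay in a row near the top of every adult, cCCTTTTCgtgttttattaaca, named after its values were seen and listed with unequal counts in 2 rows. The higher of them had 17812, 19639, 20938 and 21574 CPM in the adults, against 6188, 9094 and 14884 CPM in the larvae (log2 1.0, edgeR adjusted p 0.00781). The predicted rows highest in adults, which include predicted row 1, had means of 19991, 15991, 4870 and 3559 CPM in adults. Their means in larvae were 10022, 6139, 90.5 and 633 CPM, so much of the difference in predicted share lay in a few rows.

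Of the 56 higher rows 29 (51.8%) began with T, of the 50 lower rows 16 (32.0%), and of all 320 tested 138 (43.1%). The pupal mean lay between those of adults and larvae for 35 of the 56 and 31 of the 50. It was above both for 7 and 8 and below both for 14 and 10, while over all 320 it lay between for 106, above both for 101 and below both for 112. Among the higher rows 33 had a higher mean in instars 4 to 6 than in instars 1 to 3, and among the lower rows 22 did, beside 194 of all 320 (60.6%). None of the 56 higher rows and 1 of the 50 lower rows were counted as vertebrate-named, beside 26 of all 320. Near copies of rows with other family names, such as miR-98-x, are not in these counts.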

How the data were processed

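Small RNA libraries were made from total RNA (Trizol extraction, TruSeq small RNA kit, HiSeq 2500), per the labels' protocols, whose text counts 9 libraries although 18 were deposited. The authors deposited raw counts for each miRNA in 1 table, which also lists its sequence. These are whole numbers with unequal library totals. No source used here names the aligner, miRNA caller or genome build, and no coordinates are given.

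Rows with equal sequence and counts were merged (741 to 660 rows), and 10 sequences with unequal counts in several rows stayed apart. Near copies differ by at most 2 bases over at least 18 aligned. Of the 660 rows, 276 have one, and 177 are predictions. Rows with a mean of at least 10 counts were tested in 1 edgeR quasi-likelihood fit (edgeR 4.0.16, R 4.3.3, robust, TMM) of 6 larval, 6 pupal and 4 adult libraries, and sexes in a like fit with 5 groups. P-values were adjusted by Benjamini-Hochberg over all tested rows, with a threshold of 0.05. The SE is the log2 fold change divided by the square root of F and is approximate. Levels are CPM with the TMM factors of that fit. Replicates were numbered in accession order, so the numbers pair nothing. Arm, length form and composition values were compared by exact permutation over 210 arrangements, with 0.5 CPM added before ratios.

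The named rows are the 10 largest rises and falls among called rows averaging 100 CPM or more, the 5 largest for seed families, the 10 most abundant rows of adults and of larvae, called hairpins, and members of 18 lists. Members, lists and tests were chosen with earlier results of these data known. Alternatives were other scalings and filters, DESeq2 1.42.0, limma 3.58.1, thinned counts, other sets of libraries and leaving out each library. On simulated data with 338 rows tested, the adult and larval test called 93.2% of 16-fold and 45.1% of 4-fold changes, and 1 of 228 unchanged rows. The simulated rows shared a single spread, and libraries of a stage did not differ by instar, sex or age. The rates therefore need not hold for the real libraries. Other steps ran in Python 3.11.15 with scipy 1.17.1, pandas 2.3.3 and numpy 2.4.6, and figures in matplotlib 3.10.9.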

Additional observations from a re-analysis of the deposited data

Results flagged for a closer look

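Single libraries stood apart from the rest of their group in 5 of 48 groups examined on the log2(CPM + 0.5) scale or, for composition, on the measure itself; chance gives about 1 in 20. Instar 6 was high among the larvae in sfr-miR-375-3p, at 62.4 CPM. Instar 1 was low among the larvae in miR-11980-z, at 28.1 CPM, and in miR-1175-x, at 473 CPM. The day 4 male was the only adult with a count of miR-11980-z, at 0.269 CPM, which is a single count. The day 4 female had the most rows detected among the adults, 453 in 230451 counts.

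In 2 of the 20 largest changes the test of female minus male passed the threshold. Rows that did not pass can still differ widely between the sexes. Against larvae, miR-989-y had a log2 fold change of 12.97 in females and 1.68 in males. The values for sfr-miR-375-3p were 1.60 in females and 6.45 in males. miR-989-z had a female minus male log2 difference of 12.92 (edgeR adjusted p 0.0253), with both females above and both males within the larval range. The predicted form of miR-375-3p, tTTGTTCGccccggctcgagtcg, had -5.75 (edgeR adjusted p 0.0312), and both sexes were above every larva.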

How the results depend on the processing

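Among the named rows, seed families, hairpins and length pairs, no called result changed direction under the alternatives run. For the remaining calls the direction was not compared row by row. For adults against larvae (106 calls) the count was 59 with instars 4 to 6 as the larvae and 27 with the day 1 adults only, where 92 rows had an unadjusted edgeR p under 0.05 and 2 libraries stood for the adults. The split of 56 higher and 50 lower became 70 and 39 with TMM factors of 18 libraries, 63 and 45 with DESeq2's size factors and 49 and 50 with library totals. With no filter on low counts, which tests 658 rows, it was 72 and 42. Seed families (76) gave 35 with instars 4 to 6. In the fit of larvae and adults only, seed families gave 56 and single rows 82. Females against larvae (57) gave 95 by the DESeq2 Wald test, with 52 higher and 43 lower, and 41 higher and 14 lower with no filter, 43 and 24 with DESeq2's size factors and 38 and 22 with library totals. Males against larvae gave 41 and 19 with no filter. Female minus male (13) gave 8 with no filter, 20 by the DESeq2 Wald test and 23 with rows unmerged. With a pseudocount of 5 CPM the arm calls numbered 10 and the length form calls 8, and with a weaker arm of at least 50 counts the arm calls numbered 3. The causes were not tested.

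Leaving out 1 library in turn gave 72 to 117 calls for adults against larvae, 53 to 87 for seed families, 7 to 74 for females, 6 to 73 for males and 0 to 15 for female minus male. Without instar 4 the counts were 35 for females, 38 for males and 7 for female minus male, without instar 2 males had 36, and without instar 3 males had 42 and female minus male 5. Arm balance and length forms gave 0, where 1 library fewer raises the smallest possible p. Adults minus larvae ran from -1.65 to 2.56 percentage points for the 10 most abundant rows, from -0.19 to 0.00 bits for diversity, from 19 to 53.2 for rows detected and from 2.13 to 3.0 percentage points for predicted rows. Among the 20 largest changes, 15 of the 27 losses of a call came with instars 4 to 6 or the day 1 adults, and both miR-277-3p rows kept theirs under all 26 alternatives run.

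No paired analysis was possible because the replicate numbers were given in accession order and the labels tie no adult library to a larval one. Depth limits levels under 12.2 CPM in instar 5, where a count of 3 is worth most.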
